A study of Homo sapiens with 17 samples.

Results

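The genes described here encode the kinases that activate NF-κB and the adaptors that bring them to their substrates: MAP3K14 (the protein NIK), CHUK (IKKα), IKBKB (IKKβ), IKBKG (NEMO, also called IKKγ), IKBKE (IKKε), TBK1, MAP3K7 (TAK1), MAP3K8 (TPL2), TAB2 and TAB3. They were taken by symbol, and all 10 were found among the 58870 gene entries of the deposited table and passed the filter on low counts. The RNA came from MDA-MB-231, an established line of human triple-negative breast cancer cells that the labels describe as mesenchymal and basal B, grown in RPMI with 10% serum. The cells received TRAIL, a death ligand of the TNF family, at 45 nM, a dose below the optimum meant to leave living cells to measure. RNA was taken at 0, 1, 3, 6, 12 and 24 h, with 3 libraries at each time and 2 at 1 h, 17 in all. Every library, those at 0 h included, carries the same treatment label and comes from the same unmodified line. There is no untreated library at a later time among those analysed here, so time with TRAIL cannot be told apart from time in culture. Nothing in the labels says whether replicates were separate cultures, so p-values measure only the spread between these libraries.

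NF-κB is held in the cytoplasm by inhibitory IκB proteins. In the canonical pathway TAK1, joined to ubiquitin chains through TAB2 or TAB3, activates the IKK complex, in which NEMO holds the catalytic subunits IKKα and IKKβ, and IKKβ marks IκBα for destruction. In the alternative pathway NIK, which resting cells degrade through TRAF2, TRAF3 and the cIAP ubiquitin ligases, activates IKKα, and IKKα drives the processing of the NFKB2 product p100 to p52. TBK1 and IKKε are relatives of the IKKs best known for activating interferon regulatory factors, and TPL2 is a kinase released from the NFKB1 product p105 to activate MEK. TRAIL receptors are known to recruit this machinery in cells that do not die. All of these steps are controlled largely on the protein, which was not measured: the values below are transcript levels.

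Libraries held between 13731520 and 19234924 counts, and the common biological coefficient of variation was 7.06%. Levels are in CPM, counts relative to the library total after TMM scaling, which corrects for composition. The markers of the line were present in every library for VIM (2495 to 3724 CPM), CD44 (1219 to 1557 CPM), ZEB1 and FOXC1. SPARC, listed as a marker of the line, was nearly absent with 4 to 17 counts per library. ESR1 and PGR had at most 2 counts, CDH1 had 4 to 16 counts, and ERBB2 lay between 56.4 and 70.9 CPM and EPCAM between 13.1 and 19.3 CPM. Among markers of cells that the culture should not hold, CD3E was at 0 in every library, and ALB and PTPRC had at most 2 and 5 counts. PECAM1 had 11 to 68 counts. The summed level of these 4 genes was 1.182 to 2.116 CPM at 0 h and 2.91 to 4.04 CPM at 24 h, when PECAM1 was higher by 1.16 (log2 fold change, SE 0.267, edgeR adjusted p = 0.00258). The summed level of the markers of the line was 4688 to 4828 CPM at 0 h and 3851 to 4141 CPM at 24 h, when VIM was lower (-0.36, adjusted p = 3.0e-04) and ZEB1 higher (0.42, adjusted p = 0.0126). Mitochondrial genes held 5.53 to 8.37% of the counts at 0 h, 7.99 to 8.97% at 3 h, 3.97 to 5.45% at 6 h, 5.01 to 6.80% at 12 h and 3.66 to 4.14% at 24 h.

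Over the 24 h, no member was lower than at 0 h by the test at any time. TAB2 at 3 h lay just outside the threshold (edgeR adjusted p = 0.0579) and was called lower under 9 of 20 alternative settings. The mean levels of the members that were higher peaked at different times. MAP3K14 was highest at 3 h, CHUK and TAB3 at 6 h, and IKBKE and TAB2 at 24 h. IKBKB, IKBKG and MAP3K8 did not pass the test at any time against 0 h. Genes with a Benjamini-Hochberg adjusted p below 0.05 in the edgeR quasi-likelihood test, taken over all 15365 genes that passed the filter, are referred to as called. Every adjusted p given for a single gene is of this kind unless another tool is named.

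**Figure D1:**
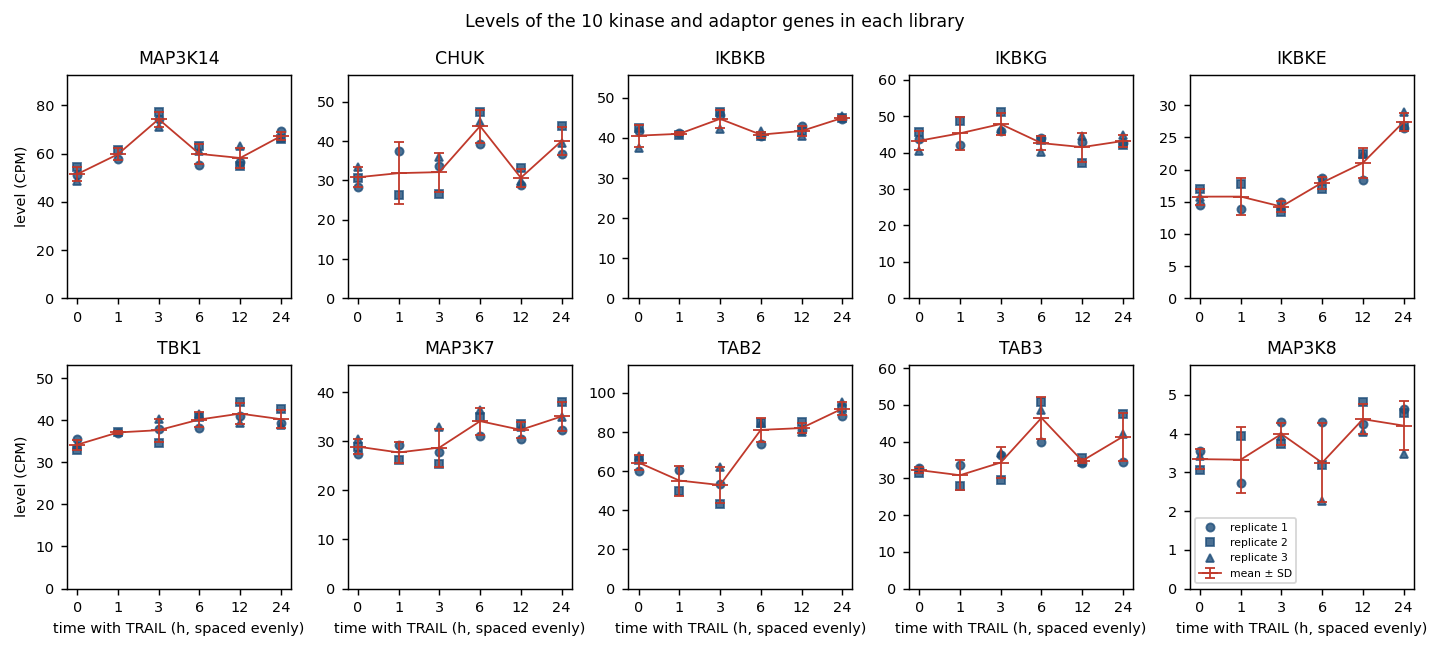
Level of each of the 10 genes (vertical axis, CPM, starting at 0) in each library against time with TRAIL (horizontal axis, h, spaced evenly). Symbols are libraries by replicate number, the line joins the means and the bars are SD (n = 3, n = 2 at 1 h); MAP3K14 is highest at 3 h, CHUK and TAB3 at 6 h, and IKBKE and TAB2 at 24 h.

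At 1 h against 0 h, 0 members were called, where 0.312% of all genes tested were called. MAP3K14 was the 1 member with an unadjusted p below 0.05. DESeq2 and limma-voom called 0 members as well, beside 0.404% and 0.280% of all genes. At 3 h, 1 member was called and was higher, MAP3K14, where 17.7% of all genes were called and 9.04% were called higher. At 6 h, 5 members were higher (CHUK, MAP3K14, TAB2, TAB3 and TBK1) beside 30.1% of all genes called and 16.9% called higher. At 12 h, 3 were higher (IKBKE, TAB2 and TBK1), beside 12.4% called and 5.96% called higher over all genes. At 24 h, 7 of the 10 were higher (CHUK, IKBKE, MAP3K14, MAP3K7, TAB2, TAB3 and TBK1), beside 35.1% called and 18.0% called higher. At 1, 3, 6, 12 and 24 h the median log2 fold change of the members was 0.01, 0.12, 0.23, 0.17 and 0.35 in that order, and the median of all genes tested lay between -0.02 and 0.00 at these times. These 5 comparisons share the 0 h libraries. At 6 h and 24 h, the times with the most member calls, the mitochondrial share was below that of every 0 h library, and at 24 h so was the summed level of the markers of the line. Their part in these calls was not tested. The counts moved with single libraries. At 3 h, 2 members were called on removal of 0 h replicate 1 or 3 h replicate 3, beside 18.7% and 18.9% of all genes. At 6 h, 3 were called on removal of 0 h replicate 1, beside 18.9% of all genes, and 2 on removal of 6 h replicate 2 or 3, beside 18.6% and 17.4%. At 12 h, 1 was called on removal of 0 h replicate 1 or 2, beside 6.65% and 6.66% of all genes, and 0 on removal of 12 h replicate 2, beside 4.73%. At 24 h, 4 were called on removal of 0 h replicate 1 or 24 h replicate 3, beside 22.5% and 24.9% of all genes, and 3 on removal of 0 h replicate 2 or 24 h replicate 2, beside 29.7% and 23.8%. Replicates 2 and 3 at 6 h and at 24 h were closer to each other than other replicates, and with each pair averaged as 1 library 2 members were called at 6 h and 3 at 24 h, beside 16.6% and 22.7% of all genes. In a test over all times together 7 of the 10 members were called, close to the 64.2% of all genes called. The 3 not called were IKBKB (adjusted p = 0.126), IKBKG (0.238) and MAP3K8 (0.173). With scaling by library size only, IKBKB was called in it (0.0245).

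**Figure D2:**
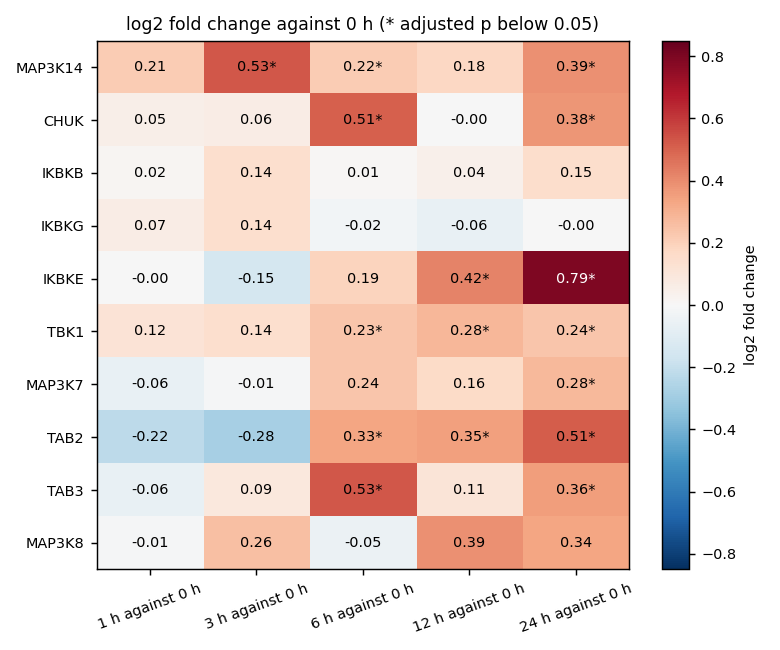
Log2 fold change of each gene (rows) at each time against 0 h (columns), from the edgeR fit over 17 libraries; the colour scale runs from blue (lower) to red (higher) and an asterisk marks an adjusted p below 0.05. All asterisks are on positive values, and IKBKE at 24 h has the largest value, 0.79.

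Neighbouring times were also compared. From 1 h to 3 h, 1 member was called, MAP3K14, which was higher, where 5.73% of all genes were called and 3.17% called higher. From 3 h to 6 h, MAP3K14 was lower while CHUK, IKBKE, MAP3K7, TAB2 and TAB3 were higher, 6 calls beside 43.2% of all genes, 22.9% called higher and 20.3% called lower. From 6 h to 12 h, CHUK and TAB3 were lower, 2 calls beside 20.6% of all genes, 11.9% called lower. From 12 h to 24 h, IKBKE was higher, 1 call beside 12.0% of all genes, 6.42% called higher. The count from 1 h to 3 h was 0 on removal of either 1 h library or of 3 h replicate 1 or 2, when 1.71% to 3.75% of all genes were called. From 3 h to 6 h it was 3 on removal of 3 h replicate 2, beside 32.8% of all genes, and from 6 h to 12 h it was 1 on removal of 6 h replicate 2 or 3, beside 12.0% and 11.8%. From 12 h to 24 h it was 0 on removal of 12 h replicate 1 or 24 h replicate 2 or 3, beside at most 4.36% of all genes. It was 2 on removal of 12 h replicate 3, beside 8.10%, and 3 on removal of 24 h replicate 1, beside 18.2%.

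Levels of different genes can be compared only per length, here as CPM per kilobase of the union of a gene's exons. At 0 h the order was IKBKG (12.3 ± 0.759, SD, n = 3), TAB2 (10.7 ± 0.657), MAP3K14 (8.89 ± 0.518), TBK1 (7.18 ± 0.258), CHUK (4.44 ± 0.365), IKBKE (4.17 ± 0.323), MAP3K7 (3.999 ± 0.203), IKBKB (3.61 ± 0.242), TAB3 (2.54 ± 0.061) and MAP3K8 (0.928 ± 0.0715). CHUK, IKBKE and MAP3K7 overlapped their neighbours in this order, and the libraries of the other neighbours did not overlap. By 24 h, TAB2 stood at the top (15.3 ± 0.578 CPM per kilobase), IKBKG (12.2 ± 0.431) and MAP3K14 (11.6 ± 0.298) overlapped behind it, and IKBKE (7.23 ± 0.361) had moved above CHUK (5.78 ± 0.519) without overlap. The place of IKBKB depended on the length used: with the longest transcript it was the 5th in the order at 0 h (8.11 ± 0.545) instead of the 8th. With that length the order of IKBKE and CHUK at 24 h was not resolved (8.51 ± 0.424 and 8.26 ± 0.742 CPM per kilobase), nor was that of TAB2 and IKBKG (20.2 ± 0.763 and 18.8 ± 0.661).

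MAP3K14, the kinase at the head of the alternative pathway, lies on chromosome 17 at 45263119 to 45317145, minus strand (GENCODE 29, GRCh38). Its level was 51.1, 54.6 and 48.6 CPM in the 0 h libraries. At 1 h it was 57.9 and 61.5 CPM, and at 3 h it was 74.4, 77.3 and 71.1 CPM. Each 3 h library was above every library at 0 and 1 h, and no library at a later time reached the lowest of them. At 6 h the level was 55.2, 63.3 and 61.0 CPM, at 12 h 56.5, 54.9 and 63.1 CPM, and at 24 h 69.2, 65.9 and 66.6 CPM. The pattern therefore had a peak at 3 h, a lower level at 6 and 12 h and a higher level at 24 h, with every later library above all those at 0 h.

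At 3 h MAP3K14 was 1.44-fold higher than at 0 h (log2 fold change 0.53, SE 0.0696, adjusted p = 3.2e-05), and it was called under each of the 20 alternatives tried. From 3 h to 6 h it fell by 0.31 on the log2 scale (SE 0.0689, adjusted p = 0.00136), also under each alternative. The remainder at 6 h was small, 0.22 (SE 0.0696, adjusted p = 0.0232), and was not called on removal of 0 h replicate 1 (0.0724), 0 h replicate 3 (0.0997), 6 h replicate 2 (0.114) or 6 h replicate 3 (0.0857). At 12 h the difference was 0.18 (SE 0.0695, adjusted p = 0.0999). At 24 h it was 0.39 (SE 0.0693, adjusted p = 4.2e-04), called under each alternative. From 12 h to 24 h the difference of 0.21 missed the threshold (adjusted p = 0.0519). It was called under 5 of the 20 alternatives, removal of 12 h replicate 3 among them (0.0290). The difference at 1 h, 0.21, had an adjusted p of 0.721. The step from 1 h to 3 h was 0.31 (SE 0.0777, adjusted p = 0.0199) and was not called on removal of 1 h replicate 1 (0.257), 1 h replicate 2 (0.0592), 3 h replicate 1 (0.0618) or 3 h replicate 2 (0.0698). The expected counts of MAP3K14 were not whole in 15 libraries, so some fragments were shared with another gene. The antisense gene MAP3K14-AS1 overlaps 713 exonic bases of it and had 9 to 29 counts, against 781 to 1181 for MAP3K14.

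Since κB sites, the sequences that NF-κB binds, are the usual mark of genes driven by the pathway's own output, the 250 bases before each RefSeq start (GRCh38.p14) were searched on both strands for the κB consensus of 10 bases. RefSeq windows were found for 9 of the 10 members, IKBKB being the exception. A match was present in 9.96% of 35116 windows over all genes and in 11.8% of 27305 genes. Of the 9 members, 7 had no match, MAP3K14 and IKBKE among them. MAP3K8 had a match in each of its 3 windows, of which 2 overlap and hold the same match, and TAB2 in 1 of 2. NFKB2, the substrate gene named in the title of the series, had matches in 2 of 3. The upstream stretches of MAP3K14 (chr17:45317146-45317270, minus strand) and IKBKE (chr1:206470226-206470475, plus strand) are shown because these genes led at 3 h and at 24 h. The stretches of 30 bases are shown for the genes with a match, from chr10:30433982-30434011 and chr10:30434429-30434458 for MAP3K8, chr6:149318188-149318217 for TAB2, and, 1 from each window with a match, chr10:102394461-102394490 and chr10:102395674-102395703 for NFKB2, all plus strand. Those of MAP3K8 and TAB2 precede RefSeq starts that lie inside the genes as placed by GENCODE below. The RefSeq start of MAP3K14 also lies inside its gene as placed by GENCODE. Its stretch is the 125 bases of the window outside that gene. The 125 bases next to the RefSeq start were searched as well but are not shown. Each stretch is written 5′ to 3′ on the strand of the gene, and capitals mark the bases covered by κB matches.
MAP3K14 upstream: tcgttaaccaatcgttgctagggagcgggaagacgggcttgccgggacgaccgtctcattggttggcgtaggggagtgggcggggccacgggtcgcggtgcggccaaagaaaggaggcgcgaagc
IKBKE upstream: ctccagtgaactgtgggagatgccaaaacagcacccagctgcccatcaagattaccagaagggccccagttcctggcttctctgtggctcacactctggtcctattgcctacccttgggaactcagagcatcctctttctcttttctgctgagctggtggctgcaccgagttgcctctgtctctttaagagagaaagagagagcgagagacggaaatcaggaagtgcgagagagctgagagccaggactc
MAP3K8 A: ggggagacgcGGAATTTCCCagcgcggggg
MAP3K8 B: tgggtgccccGGGGATTCCCatgcagaaat
TAB2: gtggcggagaGGGAGGCCCCCcgagtcccc
NFKB2 A: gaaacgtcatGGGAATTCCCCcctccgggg
NFKB2 B: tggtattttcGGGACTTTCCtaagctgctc
A match is a description of the letters and no site of binding, and its absence covers only these windows. MAP3K8, with 2 separate matches and 42 to 96 counts per library, was not called against 0 h at any time. MAP3K14, with no match in its window, was the member called at 3 h. The part of κB sites in the levels of either gene was not tested.

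CHUK, the catalytic subunit that both pathways share (chromosome 10, 100188298 to 100229619, minus strand), was higher at 6 h and at 24 h but not between them. Its level was 28.4, 30.6 and 33.4 CPM at 0 h, and 33.7, 26.6 and 36.1 CPM at 3 h. At 6 h it was 39.2, 47.4 and 44.8 CPM, at 12 h 28.8, 33.3 and 29.9 CPM, and at 24 h 36.7, 43.8 and 39.6 CPM. The 6 h and 24 h libraries all lay above those at 0 h, and the 12 h libraries overlapped with 0 h. CHUK was 1.42-fold higher at 6 h (log2 fold change 0.51, SE 0.123, adjusted p = 0.00533) and lower again at 12 h than at 6 h, by a log2 fold change of -0.51 (SE 0.122, adjusted p = 0.00674), and both were called under every alternative. The 1 h libraries, 37.4 and 26.3 CPM, lay on either side of those at 0 h. The rise from 3 h to 6 h, 0.45 (adjusted p = 0.00746), was not called on removal of 3 h replicate 2 (0.0506), and was 0.23 with the length and GC correction described below. At 24 h the log2 fold change was 0.38 (SE 0.124, adjusted p = 0.0242), not called on removal of 0 h replicate 1 (0.103), 0 h replicate 2 (0.0615), 24 h replicate 2 (0.112) or 24 h replicate 3 (0.0557). The difference from 12 h to 24 h, 0.38, lay at the threshold (adjusted p = 0.0505) and was called under 8 of the 20 alternatives. Among these were removal of 24 h replicate 1 (0.0327) and DESeq2 (adjusted p = 0.0275). CHUK shares 37 exonic bases with ERLIN1 on the same strand, and its counts were whole in every library.

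IKBKB, the subunit that phosphorylates IκBα (chromosome 8), was not called at any time against 0 h. It measured 41.8, 42.5 and 37.5 CPM at 0 h, 45.6, 46.5 and 42.2 CPM at 3 h, and 44.7, 44.9 and 45.4 CPM at 24 h. At 1, 6 and 12 h it lay between 40.4 and 42.9 CPM, within the range of the 0 h libraries but for the highest value. The 24 h libraries lay above all those at 0 h by a small margin, and the log2 fold change of 0.15 (SE 0.0632) had an adjusted p of 0.0736. With scaling by library size only, the log2 fold change at 24 h was 0.22 and was called (adjusted p = 0.0108). At 3 h it was 0.14 (SE 0.0639, adjusted p = 0.134). From 3 h to 6 h the difference of -0.13 had an adjusted p of 0.103. It was called lower under 4 of the 20 alternatives, among them upper-quartile scaling (0.0223) and removal of 3 h replicate 3 (0.0398).

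IKBKG, the regulatory subunit (chromosome X, 154541199 to 154565046, plus strand), showed no change that passed the test. Its level was 43.8, 45.6 and 40.3 CPM at 0 h, 45.9, 51.2 and 46.4 CPM at 3 h, and 42.5, 42.1 and 44.9 CPM at 24 h. The 3 h libraries were above those at 0 h (log2 fold change 0.14, SE 0.0805, adjusted p = 0.224), and the 24 h libraries overlapped them (-0.00, SE 0.0801, adjusted p = 0.983). These values are uncertain: the expected counts were not whole in 15 libraries, and the pseudogene IKBKGP1 received 0 to 47.4 counts per library. IKBKG had 619 to 803.

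IKBKE, an IKK-related kinase described as inducible in many cell types (chromosome 1, 206470476 to 206496889, plus strand), had the largest change of the 10. Its level was 14.6, 17.01 and 15.8 CPM at 0 h, 13.8 and 17.8 CPM at 1 h, and 15.0, 13.4 and 14.4 CPM at 3 h. At 6 h it was 18.6, 16.9 and 18.4 CPM, at 12 h 18.3, 22.4 and 22.4 CPM, and at 24 h 26.4, 26.8 and 28.96 CPM. Every library at 12 and 24 h lay above all those at 0 h, and every library at 24 h above all those at 12 h. The fold at 24 h was 1.73 (log2 fold change 0.79, SE 0.0987, adjusted p = 1.4e-05), called under each alternative. At 12 h the log2 fold change was 0.42 (SE 0.1, adjusted p = 0.0102), not called on removal of 0 h replicate 1 (0.0614) or 12 h replicate 2 (0.0614). At 6 h it was 0.19 (adjusted p = 0.171) and at 3 h -0.15 (adjusted p = 0.363).

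The step of IKBKE from 3 h to 6 h was 0.33 (SE 0.105, adjusted p = 0.0147), not called on removal of 3 h replicate 2 (0.0691). From 6 h to 12 h the difference of 0.23 was not called (adjusted p = 0.101). It was called under 4 of the 20 alternatives, removal of 12 h replicate 1 among them (0.0467). The step from 12 h to 24 h was 0.37 (SE 0.0952, adjusted p = 0.0163), not called on removal of 12 h replicate 1 (0.0966), 24 h replicate 2 (0.0512) or 24 h replicate 3 (0.0833). IKBKE had 172 to 451 counts per library, not whole in 7 of them. The rise of PECAM1 at 24 h given above moves with that of IKBKE, and its part in it was not tested. In a bulk sample, a higher level in each cell and a larger share of cells with a high level cannot be told apart.

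TBK1, the closest relative of IKBKE (chromosome 12, 64451880 to 64502108, plus strand), was called from 6 h on, with changes smaller than those of IKBKE at 12 and 24 h. It measured 35.5, 33.0 and 34.1 CPM at 0 h, 36.9 and 37.3 CPM at 1 h, and 38.0, 34.7 and 40.2 CPM at 3 h. At 6 h the level was 38.3, 40.7 and 41.6 CPM, at 12 h 41.0, 44.4 and 39.4 CPM, and at 24 h 39.3, 42.7 and 38.8 CPM. From 6 h on, every library lay above all those at 0 h, and the groups at 6, 12 and 24 h overlapped. The log2 fold change was 0.23 at 6 h (SE 0.0714, adjusted p = 0.0188), 0.28 at 12 h (SE 0.071, adjusted p = 0.0135) and 0.24 at 24 h (SE 0.0714, adjusted p = 0.0151). No step between neighbouring times was called. The 6 h call was lost on removal of 0 h replicate 2 (0.0651), 6 h replicate 2 (0.0625) or 6 h replicate 3 (0.0850), and the 12 h call without the 0 h replicate 2 (0.0590) or 12 h replicate 2 (0.0885). The 24 h call was lost on removal of 0 h replicate 2 (0.0559) or 24 h replicate 2 (0.0839), and the call over all times (adjusted p = 0.0182) without the 0 h replicate 2 (0.0693) or 0 h replicate 3 (0.0590).

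MAP3K7, which encodes TAK1 (chromosome 6, 90513573 to 90587045, minus strand), was called against 0 h at 24 h alone. Its level was 27.5, 28.8 and 30.4 CPM at 0 h, 27.9, 25.3 and 32.9 CPM at 3 h, and 31.0, 34.9 and 36.4 CPM at 6 h. At 1 h it was 29.2 and 26.3 CPM, at 12 h 30.5, 33.5 and 33.0 CPM, and at 24 h 32.2, 38.0 and 35.0 CPM. The libraries at 6, 12 and 24 h all lay above those at 0 h. At 24 h the log2 fold change was 0.28 (SE 0.0925, adjusted p = 0.0252), not called on removal of 0 h replicate 1 (0.103), 0 h replicate 2 (0.0612), 24 h replicate 2 (0.129) or 24 h replicate 3 (0.0606). At 6 h it was 0.24 (SE 0.0925, adjusted p = 0.0561), called under 4 of the 20 alternatives, among them the fit without the 6 h replicate 1 (0.0250). The step from 3 h to 6 h, 0.25 (adjusted p = 0.0388), had overlapping libraries and was not called on removal of 3 h replicate 1 (0.114), 3 h replicate 2 (0.208), 6 h replicate 2 (0.102) or 6 h replicate 3 (0.161).

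TAB2, an adaptor that ties TAK1 to ubiquitin chains (chromosome 6, 149218641 to 149411613, plus strand), was higher from 6 h on. It measured 59.98, 65.8 and 67.5 CPM at 0 h, 60.6 and 49.8 CPM at 1 h, and 53.5, 43.3 and 61.9 CPM at 3 h. The 3 h libraries were spread widely and the highest of them overlapped with 0 h. At 6 h the level was 73.8, 84.6 and 84.9 CPM, at 12 h 81.3, 84.98 and 79.9 CPM, and at 24 h 88.4, 92.1 and 95.4 CPM. From 6 h on, every library lay above all those at 0, 1 and 3 h.

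The log2 fold change of TAB2 at 24 h was 0.51 (SE 0.097, adjusted p = 7.1e-04), and the step from 3 h to 6 h was 0.61 (SE 0.0994, adjusted p = 1.5e-04), or 1.53-fold, and both were called under each alternative. At 6 h against 0 h it was 0.33 (SE 0.0973, adjusted p = 0.0154), not called on removal of 0 h replicate 1 (0.0749), 6 h replicate 2 (0.0644) or 6 h replicate 3 (0.0704). At 12 h it was 0.35 (SE 0.097, adjusted p = 0.0242), not called on removal of 0 h replicate 1 (0.112), 0 h replicate 2 (0.0618), 12 h replicate 1 (0.0508) or 12 h replicate 2 (0.10). At 3 h it was -0.28 (SE 0.1, adjusted p = 0.0579), just outside the threshold, and 9 of the 20 alternatives called it lower. Among these were the fits that left out 0 h replicate 1 (0.0447) or 3 h replicate 3 (0.00779), and DESeq2 (adjusted p = 0.0416).

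TAB3, the paralogue of TAB2 (chromosome X, 30827442 to 30975084, minus strand), was highest at 6 h, as CHUK was. Its level was 32.7, 31.3 and 32.6 CPM at 0 h, 33.7 and 28.0 CPM at 1 h, and 36.3, 29.5 and 37.0 CPM at 3 h. It was 39.9, 50.8 and 48.7 CPM at 6 h, 34.3, 35.5 and 34.5 CPM at 12 h, and 34.4, 47.4 and 42.2 CPM at 24 h. All 6 h libraries were above all those at 0, 1, 3 and 12 h, and the 24 h replicate 1 was within the range of 12 h. The log2 fold change was 0.53 at 6 h (SE 0.112, adjusted p = 0.00202), called under each alternative but smaller with the length and GC correction described below (0.33), and 0.11 at 12 h (adjusted p = 0.571). From 6 h to 12 h it changed by -0.42 (SE 0.111, adjusted p = 0.0121), not called on removal of 6 h replicate 2 (0.0673) or 6 h replicate 3 (0.0574). At 24 h against 0 h it was 0.36 (SE 0.112, adjusted p = 0.0191), not called on removal of 0 h replicate 1 (0.0516), 0 h replicate 2 (0.0605), 24 h replicate 2 (0.128) or 24 h replicate 3 (0.0591). From 12 h to 24 h the difference of 0.25 (adjusted p = 0.148) was called on removal of 24 h replicate 1 (0.0228).

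MAP3K8 (chromosome 10, 30433937 to 30461833, plus strand) was the least abundant member, with 42 to 96 counts per library. It measured 3.55, 3.05 and 3.42 CPM at 0 h, 4.30, 3.73 and 3.94 CPM at 3 h, and 4.30, 3.18 and 2.27 CPM at 6 h. At 12 h it was 4.25, 4.82 and 4.05 CPM and at 24 h 4.63, 4.52 and 3.47 CPM. The 3 h and 12 h libraries lay above those at 0 h, while the 6 h libraries spread on both sides. The log2 fold change was 0.26 at 3 h (SE 0.203, adjusted p = 0.406), 0.39 at 12 h (SE 0.194, adjusted p = 0.194) and 0.34 at 24 h (SE 0.196, adjusted p = 0.189), and these standard errors were the largest of the 10 members. Without the 6 h replicate 1, MAP3K8 was called lower from 3 h to 6 h (-0.57, adjusted p = 0.0328), higher from 6 h to 12 h (0.70, adjusted p = 0.0180) and over all times (adjusted p = 0.0322).

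Pairs of related members were set against each other within each library, as a log2 ratio of counts, which does not depend on the scaling between libraries. In a permutation test over the 6 times (100000 resamples), with adjustment over the 4 pairs compared, the ratio of TAB3 to TAB2 (adjusted p = 0.00112) and that of IKBKE to TBK1 (adjusted p = 0.00172) differed between times. The ratio of IKBKB to CHUK (adjusted p = 0.0585) and that of MAP3K8 to MAP3K7 (adjusted p = 0.334) missed the threshold. In an exact two-sided permutation test of 1 time against 0 h, 3 libraries against 3 cannot give a p below 0.1.

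The balance of the IKK-related kinases moved from TBK1 towards IKBKE. The 0 h libraries had log2 ratios of IKBKE to TBK1 of -1.28, -0.96 and -1.11, those at 3 h of -1.34, -1.38 and -1.48, and those at 24 h of -0.57, -0.67 and -0.42. Its libraries were all lower at 3 h than at 0 h, by 0.28 in the mean, and all higher at 24 h, by 0.56 (exact p = 0.1 for each, the smallest possible). The mean ratio of TAB3 to TAB2 was highest at 3 h and lowest at 12 h. Its log2 values were -0.87, -1.07 and -1.05 in the 0 h libraries, -0.56, -0.55 and -0.74 in those at 3 h, and -1.24, -1.26 and -1.21 in those at 12 h. All 3 h libraries were above those at 0 h, with a mean difference of 0.38, and all 12 h libraries below, with a mean difference of -0.24 (exact p = 0.1 for each). Between the catalytic subunits of the IKK complex, the log2 ratio of IKBKB to CHUK was 0.56, 0.47 and 0.17 at 0 h and 0.04, -0.23 and -0.10 at 6 h, a mean difference of -0.50 without overlap (exact p = 0.1). At 12 h it was 0.58, 0.33 and 0.44, overlapping with 0 h. The test of this ratio over all times passed the threshold on removal of 0 h replicate 3 (adjusted p = 0.0393), 1 h replicate 1 (0.0243), 1 h replicate 2 (0.0335) or 3 h replicate 3 (0.0270).

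**Figure D3:**
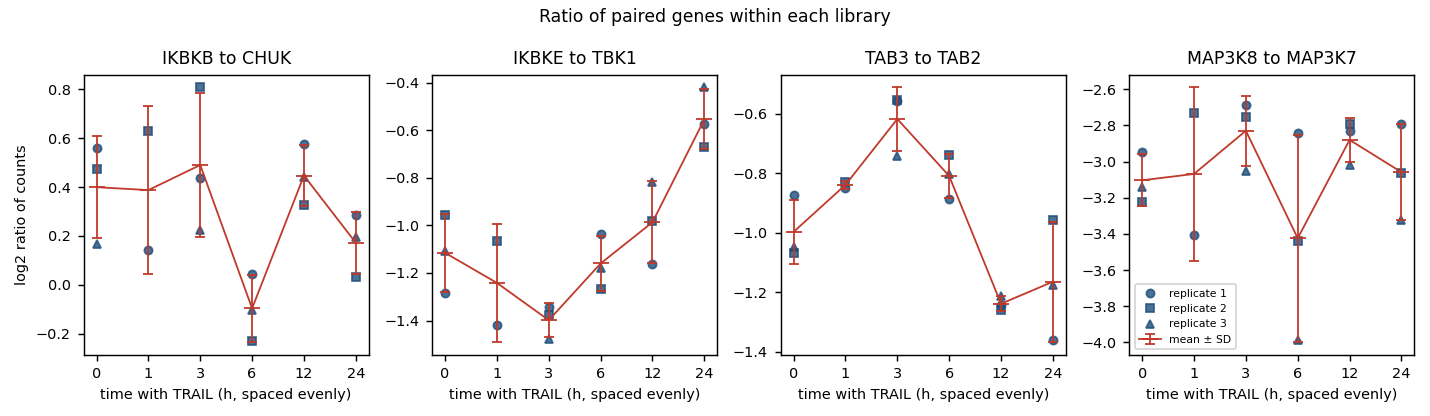
Log2 ratio of the counts of 2 related genes within each library (vertical axis) against time with TRAIL (horizontal axis, h, spaced evenly), for 4 pairs; symbols are libraries by replicate number and bars are mean ± SD. IKBKE to TBK1 is highest at 24 h, TAB3 to TAB2 is highest at 3 h, and IKBKB to CHUK is lowest at 6 h.

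The dependence of counts on transcript length and GC content was not equal between libraries, and it moved with time. The slope of log2 CPM, relative to the mean of all libraries, lay between -0.14 and -0.06 per doubling of length at 3 h, between -0.06 and -0.01 at 0 h, between 0.01 and 0.10 at 6 h and between 0.02 and 0.13 at 24 h. The slope per 10% of GC content lay between -0.02 and 0.15 at 3 h and between -0.08 and -0.03 at 24 h. Long transcripts low in GC were thus lower at 3 h and higher at 6 h and 24 h than at 0 h as a class. TAB3 (longest transcript 7987 bases, 39.1% GC), CHUK (4845 bases, 36.3% GC), MAP3K7 (4911 bases, 38.7% GC) and TAB2 (4553 bases, 39.8% GC) belong to that class. IKBKG (2299 bases, 62.6% GC), IKBKE (3221 bases, 58.7% GC) and MAP3K14 (4583 bases, 59.0% GC) are richer in GC. The fitted trend alone gave TAB3 a log2 difference of 0.20 at 6 h and 0.23 at 24 h against 0 h, and IKBKG one of -0.19 at 24 h. For MAP3K14 it gave 0.02 and 0.00, and for IKBKE -0.05 and -0.08.

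After removal of each library's trend, the members split. Over all genes, the corrected fit called 25.4%, 29.7%, 16.0% and 34.3% at 3, 6, 12 and 24 h against 0 h. Without the correction these shares were 17.7%, 30.1%, 12.4% and 35.1%. From 3 h to 6 h the corrected fit called 41.2% of all genes, and over all times 65.8%. MAP3K14 at 3 h (log2 fold change 0.56, adjusted p = 1.6e-07), IKBKE at 24 h (0.87, adjusted p = 7.2e-07) and TAB2 at 24 h (0.39, adjusted p = 8.6e-05) were called. CHUK was called at 6 h (0.37), at 24 h (0.25, adjusted p = 0.0167) and from 3 h to 6 h (0.23, adjusted p = 0.0226), and TAB3 at 6 h (0.33, adjusted p = 0.00104). MAP3K7 at 24 h (0.13, adjusted p = 0.0958) and TAB3 at 24 h (0.12, adjusted p = 0.183) were not, nor was either from 3 h to 6 h (0.06 with adjusted p = 0.492, and 0.16 with adjusted p = 0.0611). Over all times MAP3K7 was not called (adjusted p = 0.144) and IKBKB was (adjusted p = 0.0382). New calls at 3 h were TAB2, lower (-0.23, adjusted p = 0.0140), and IKBKB (0.16, adjusted p = 0.0461) and TBK1 (0.17, adjusted p = 0.0326), higher. MAP3K14 at 12 h was called (0.23, adjusted p = 0.00521), as were IKBKG at 24 h (0.19, adjusted p = 0.0132) and IKBKB from 3 h to 6 h, lower (-0.23, adjusted p = 0.00359). Whether the trend comes from the libraries or from the cells cannot be told apart, since it moves with time.

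**Figure D4:**
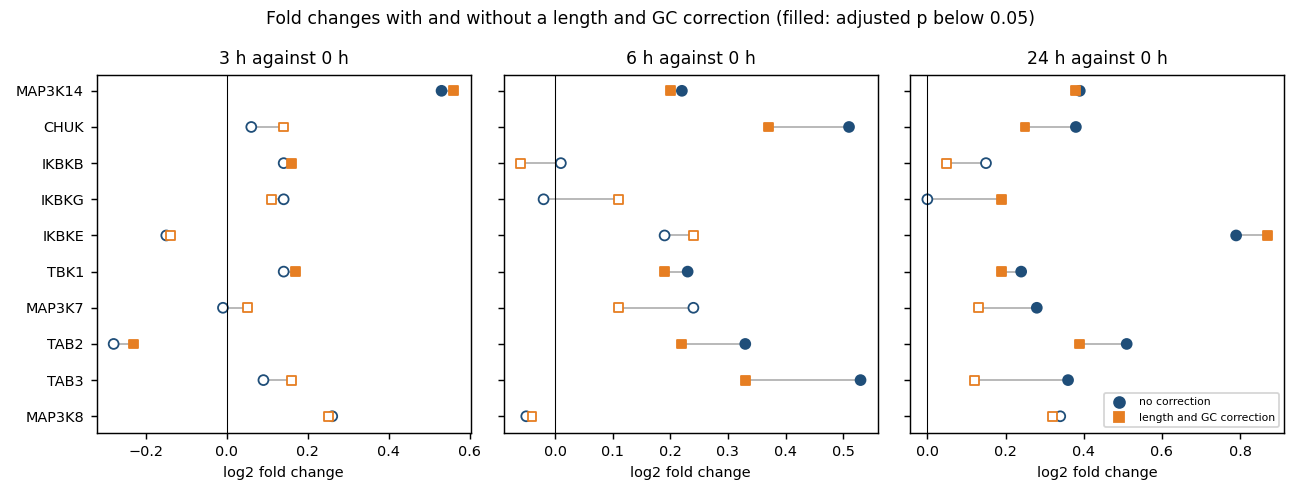
Log2 fold change against 0 h (horizontal axis) of each gene (vertical axis) at 3, 6 and 24 h, without (circles) and with (squares) removal of each library's trend with transcript length and GC content; filled symbols have an adjusted p below 0.05. TAB3, MAP3K7, CHUK, TAB2, IKBKB and, by less, TBK1 shift to smaller values at 6 and 24 h. IKBKG shifts from -0.00 to 0.19 at 24 h, and MAP3K14 barely shifts.

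The genes that act on these kinases or are acted on by them were counted from lists of the pathway. Of the 5 genes of NIK turnover (TRAF2, TRAF3, BIRC2, BIRC3 and OTUD7B), 0 were called at 1 h, and at 3, 6, 12 and 24 h the numbers called higher were 4, 5, 2 and 4, with 0 lower. Over all genes tested, 9.04%, 16.9%, 5.96% and 18.0% were called higher at 3, 6, 12 and 24 h. BIRC3, the ubiquitin ligase cIAP2, was at 42.5 ± 3.51 CPM at 0 h and rose to 198 ± 18.9 CPM at 3 h (SD, n = 3, log2 fold change 2.22, adjusted p = 1.5e-11), and TRAF3, the adaptor that holds NIK for degradation, from 41.2 ± 2.25 CPM to 67.5 ± 6.57 at 6 h (0.71, adjusted p = 9.7e-07). Thus at 3 h the transcripts of MAP3K14 and of 4 genes whose products degrade NIK were higher together. Of the 8 IKK substrates (IκB and NF-κB genes), 1 was higher at 1 h (NFKBIA), where 0.312% of all genes were called. At 3, 6, 12 and 24 h the numbers called higher were 6, 8, 4 and 5, with 0 lower, beside the shares of all genes just given. NFKB2 went from 80.3 ± 2.21 CPM at 0 h to 162 ± 15.4 at 3 h (1.01, adjusted p = 2.7e-09), and NFKBIA, which encodes IκBα, from 44.3 ± 1.69 to 116 ± 3.33 CPM (1.39, adjusted p = 1.5e-11). The median log2 fold change of the substrates was 0.81 at 3 h, where that of the 10 members was 0.12. The members and lists were chosen with earlier results of these data known, so this difference is a description and no test.

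The other lists held calls in both directions or in few genes. Over all genes tested, 0.312%, 17.7%, 30.1%, 12.4% and 35.1% were called in either direction at 1, 3, 6, 12 and 24 h. Of the 6 adaptors and targets of TBK1 and IKKε, 0 were called at 1 and 3 h. MAVS and OPTN were higher and IRF3 lower at 6 h, and MAVS, OPTN and TANK were higher at 12 h and at 24 h. OPTN, an autophagy receptor that binds TBK1, was at 123 ± 11.1 CPM at 0 h and rose to 178 ± 3.43 CPM at 24 h (0.54, adjusted p = 1.4e-05), the time at which IKBKE was highest. Of the 4 chaperones and scaffolds of the IKK complex, 0 were called at 1 and 3 h, ERC1, HSP90AA1 and HSP90AB1 were higher at 6 h and HSP90AA1 at 12 h. At 24 h ERC1 and HSP90AA1 were higher and CDC37, the co-chaperone of kinases, was lower (-0.38, adjusted p = 5.2e-04). Among 7 upstream adaptors and ubiquitin ligases, 0 were called at 1 and 3 h and 2 were higher at 6 h (RIPK1 and TRAF6). SHARPIN was lower at 12 h, and SHARPIN and RBCK1, partners in the ligase that makes linear ubiquitin chains, were lower at 24 h. The 2 of 7 called at 6 h and the 2 of 7 at 24 h lay near the shares of all genes called. TAB1, the third TAK1-binding protein, was at 22.0 ± 0.939 CPM at 0 h and 18.4 ± 1.82 CPM at 3 h (-0.26, adjusted p = 0.0561). Of the 3 partners of TPL2, MAP2K1 was lower at 3 h and MAP2K2 at 12 h, and 0 were called at 1, 6 and 24 h.

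**Figure D5:**
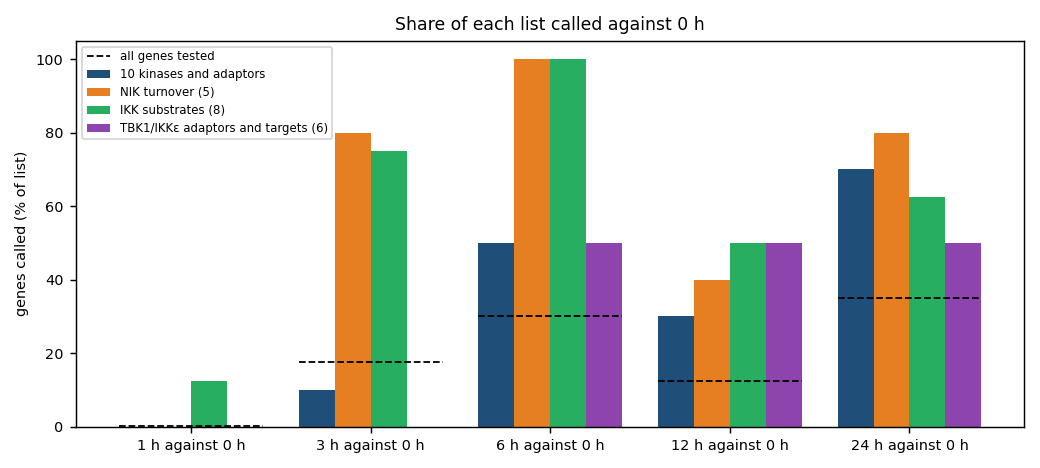
Share of each list called against 0 h at each time (vertical axis, percent of the list, from 0), for the 10 kinases and adaptors, 5 genes of NIK turnover, 8 IKK substrates and 6 adaptors and targets of TBK1 and IKKε; dashed lines give the share of all genes tested. At 3 h 1 of the 10 members, 4 of the 5 turnover genes and 6 of the 8 substrates were called.

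Across the 17 libraries the members fell into patterns, described here by Pearson's r of log2 CPM, with libraries of the same time and trends with length and GC shared by the genes. CHUK and TAB3 (r = 0.92), MAP3K7 and TAB2 (0.89), MAP3K7 and TAB3 (0.85) and CHUK and MAP3K7 (0.81) were the closest pairs. IKBKE was nearest to TAB2 (0.80), and MAP3K14 to IKBKB (0.74). MAP3K14 had r = 0.10 with CHUK, its substrate. Among 11368 genes whose average log2 CPM was 2 or more, those most like MAP3K14 were FAM43A (r = 0.945), NFKBIA (0.897) and CDC42EP2 (0.858). For IKBKE they were MMP1 (0.949), TMEM164 (0.934) and ENPP1 (0.933), and for TAB2 TMF1 (0.982), CLTC (0.980) and TOP2B (0.978). CHUK was most like TXNRD1 (0.954), TAB3 like TEAD1 (0.972) and TBK1 like USP47 (0.898).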

How the data were processed

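The authors deposited 1 table of RSEM expected counts (estimated fragments per gene) for 17 libraries, not scaled to depth or length. Per the labels' protocols, libraries were made with a stranded, paired-end mRNA kit from column-purified RNA. The submitters' processing notes name cutadapt 1.18, STAR 2.7.0f and the build hg38. The RSEM version, annotation and strand setting are not given in the sources used here, and without strand, overlapping genes can exchange counts. Values that were not whole made up 10.8% of the table. Expected counts were rounded, filtered with filterByExpr and scaled by TMM (factors 0.939 to 1.06) in edgeR 4.0.16 (R 4.3.3). A robust quasi-likelihood fit with 1 mean for each time used all 17 libraries, which then share 1 estimate of the spread, and p-values were adjusted over 15365 genes. Standard errors come from the coefficient and the F statistic. Positions and lengths are from GENCODE 29 (58597 of 58870 entries matched). The model was tested on simulated data. Pair ratios used counts plus 0.5. All 10 members were named, with pathway lists and, for each member called over all times, the most correlated genes, of which 1 is not reported here. The members and lists were chosen with earlier results of these data known. Alternatives included other scalings, filters, DESeq2 1.42.0, limma-voom (limma 3.58.1), a correction for length and GC content and leaving out each library. Replicates 2 and 3 at 6 h and at 24 h were closer to each other (chi-square per gene 1.55 and 1.68) than other pairs (3.86 to 14.6) but above counting noise, which does not show that they came from separate cultures. They were kept as separate libraries, and averaged as an alternative.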

Additional observations from a re-analysis of the deposited data

How the results depend on the processing

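Of the 26 called differences of single members, 9 were called under every alternative: MAP3K14 at 3 h and 24 h, CHUK and TAB3 at 6 h, IKBKE and TAB2 at 24 h (all against 0 h), MAP3K14 and TAB2 from 3 h to 6 h, and CHUK from 6 h to 12 h. Against 0 h at 3 h, 1 member was called, and 2 were called with upper-quartile scaling, library size only, no filter or DESeq2, and 4 with the length and GC correction. At 6 h the 5 members called became 3 with upper-quartile scaling, beside 32.1% of all genes. They became 2 with replicates 2 and 3 at 6 h and 24 h averaged, beside 16.6%. Averaging also left 3 of 7 at 24 h, 1 of 2 from 6 h to 12 h and 0 of 1 from 12 h to 24 h. In these comparisons 22.7%, 10.9% and 2.96% of all genes were called, in that order. From 1 h to 3 h, 0 were called with only the groups compared, beside 2.15% of all genes. From 12 h to 24 h, 1 became 2 with library size only, no filter, non-robust estimation, only the groups compared, limma-voom or the length and GC correction, and 3 with a mean count of at least 10 or DESeq2. The value of IKBKG at 24 h turned from -0.00 to 0.187 with the length and GC correction. Among differences not called under either setting, 84 of 1214 alternative values changed sign, with a log2 fold change of at most 0.17 before. Leaving out 1 library gave 0 to 0 members called at 1 h, 1 to 2 at 3 h, 2 to 6 at 6 h, 0 to 3 at 12 h and 3 to 7 at 24 h. For the steps it gave 0 to 1 from 1 h to 3 h, 3 to 7 from 3 h to 6 h, 1 to 3 from 6 h to 12 h and 0 to 3 from 12 h to 24 h, and 6 to 8 over all times. Where this left 1 library at 1 h, that library was assumed to vary like the other groups. The difference in the log2 ratio of IKBKB to CHUK at 24 h ran from -0.344 to -0.147 in these fits. Fewer libraries were tested in these fits, and for the other changes the cause was not tested.

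The labels repeat replicate numbers across times. Deviations of same-numbered libraries from their group means had r of -0.20 to 0.21 (median 0.01, 40 pairs of libraries, 8 of them above 0.1). Pairs with different numbers had a median of -0.01, with 14 of 80 above 0.1. Of the 17 libraries, 7 correlated best with their own number. With so few libraries per time, this cannot show whether libraries of the same number shared a culture or a batch. With the replicate block, 2 members were called at 3 h, beside 18.9% of all genes. With the replicate block and the length and GC correction together, 4 were called at 3 h, beside 26.3%. In that fit 2 were called from 12 h to 24 h, beside 18.3% of all genes, and IKBKG at 24 h was 0.187. Standard errors against 0 h were largest for MAP3K8, with 42 to 96 counts, and the part of depth in its missing calls was not tested.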
